A study of Mus musculus with 6 samples.

Results

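The Notch pathway was described through 10 of its genes in the cerebral cortex of mice at postnatal day 7: the receptors Notch1, Notch2 and Notch3, the ligands Jag1 and Dll1, the receptor modifier Lfng, the DNA-binding factor Rbpj and the target genes Hes1, Hes5 and Hey1. They were picked by symbol, with earlier results of these data known, and all 10 were found among the 35857 genes of the tables. Polyadenylated RNA was sequenced from 3 control C57BL/6 brains, labelled wild type, and from 3 C57BL/6 brains labelled Qk-/-, here called knockout. Quaking, the product of Qk, binds RNA in glia and progenitors and acts on its splicing and stability. The sources used here do not give the exons removed, the cells in which the deletion took place or any allele that both groups carry. The title of the series asks how quaking bears on the switch from neurogenesis to gliogenesis.

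Notch receptors are cut when a Delta or Jagged ligand on a neighbouring cell binds them, and the released intracellular part joins RBPJ and a Mastermind coactivator on DNA to switch on Hes and Hey genes. Hes proteins are transcriptional repressors that hold radial glia and other progenitors back from neuronal differentiation, and Notch signalling also favours an astrocyte fate in the developing cortex. Fringe enzymes add sugar to the receptors and so bias which ligands they answer to.

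Expression was given as TPM, a transcript abundance corrected for length that sums to 1000000 in every library, so levels can be compared between genes. The reads behind each value are unknown, and precision was judged from the spread between the 3 brains of a group. Between 18971 and 19710 genes per library were above 0 TPM. Qk was at 36.5, 43.2 and 41.3 TPM in the control libraries and at 14.6, 15.2 and 15.4 TPM in the knockout libraries, or 0.373 times the control mean. Qk mRNA was therefore reduced and still measured in every knockout library. Quaking protein was not analysed here, and which exons the remaining mRNA holds cannot be read from 1 value per gene. All 9 marker genes of cortical projection neurons were above 1 TPM on average, Slc17a7 and Neurod6 with the highest levels.

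Lfng and Hes5 had the log2 changes of largest size among the 10 genes, with opposite signs, and their promoters are shown because they were the ones that held the core letters bound by RBPJ, GTGGGAA. The search covered both strands of the 250 bases before the start site in the RefSeq promoter table (GRCm38.p6), which had a window for 8 of the 10 genes and none for Hes1 and Hey1. Capitals mark GTGGGAA, or TTCCCAC where it lies on the opposite strand.
Hes5, chr4:154960673-154960922, plus strand: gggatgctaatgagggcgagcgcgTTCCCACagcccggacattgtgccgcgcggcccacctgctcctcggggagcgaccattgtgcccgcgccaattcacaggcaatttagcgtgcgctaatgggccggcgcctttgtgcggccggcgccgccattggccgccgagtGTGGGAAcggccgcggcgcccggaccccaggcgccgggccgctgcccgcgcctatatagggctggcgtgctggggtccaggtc
Lfng, chr5:140607091-140607340, plus strand: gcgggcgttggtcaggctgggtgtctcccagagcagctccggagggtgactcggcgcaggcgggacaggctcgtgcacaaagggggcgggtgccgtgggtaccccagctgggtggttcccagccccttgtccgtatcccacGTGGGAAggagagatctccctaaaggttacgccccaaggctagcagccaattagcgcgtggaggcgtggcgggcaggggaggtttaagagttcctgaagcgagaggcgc
The Hes5 window held a match on each strand, with first bases 226 and 83 bases before the start site. The Lfng window held 1 match, 109 bases before the start site. Of 32851 promoter windows of this length, 5.415% held at least 1 match and 0.161% held 2 or more. The windows of Notch1, Notch2, Notch3, Jag1, Dll1 and Rbpj held none of these letters. The windows of Notch1 and Rbpj, and a window of Dll1, lie inside the span of the gene in GENCODE M21. For Notch1 and Rbpj the bases before the outermost start of that span were not searched. The N-box letters CACNAG, bound by Hes proteins, were searched on both strands in the same windows and were found for 4 of the 8 genes (Lfng, Notch1, Notch2 and Notch3) and in 36.666% of all windows. Both searches, and the length of the window, were chosen after the values of the genes were seen.

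Lfng, which encodes the Fringe enzyme lunatic fringe, was the one gene of the 10 that passed the test, and it rose in the knockout. Its levels in control replicates 1, 2 and 3 were 16.6, 24.2 and 23.1 TPM, and the knockout replicates in the same order had 37.2, 42.4 and 40.5 TPM. All knockout libraries were above all control libraries, and control replicate 1 was the lowest of the 6. The mean went from 21.3 ± 4.10 to 40.0 ± 2.63 TPM (SD, n = 3), a ratio of 1.88. On the log2 scale the change was 0.89 ± 0.139 (standard error; limma, Benjamini-Hochberg adjusted p = 0.0399). Over all 14994 tested genes, 0.1% rose and 0.287% fell at the threshold of 0.05, 0.387% together. All log2 changes are knockout minus control on the log2(TPM + 1) scale, on which the change of a gene of low TPM is compressed. The call was lost when the variance trend was left out of the test (adjusted p = 0.116), without a filter on low values (adjusted p = 0.111) and in 5 of the 6 fits that each used 5 libraries. It held without control replicate 1 (adjusted p = 0.03) and was lost without each of the other libraries, with adjusted p of 0.0644 to 0.159 and log2 changes of 0.73 to 0.99 over the 6 fits. Lfng (Entrez 16848) spans chr5:140607320-140615545 on the plus strand in GRCm38.

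The plot of TPM by library shows the separation of the groups for Lfng and Hes5 beside the other 8 genes.

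**Figure D1:**
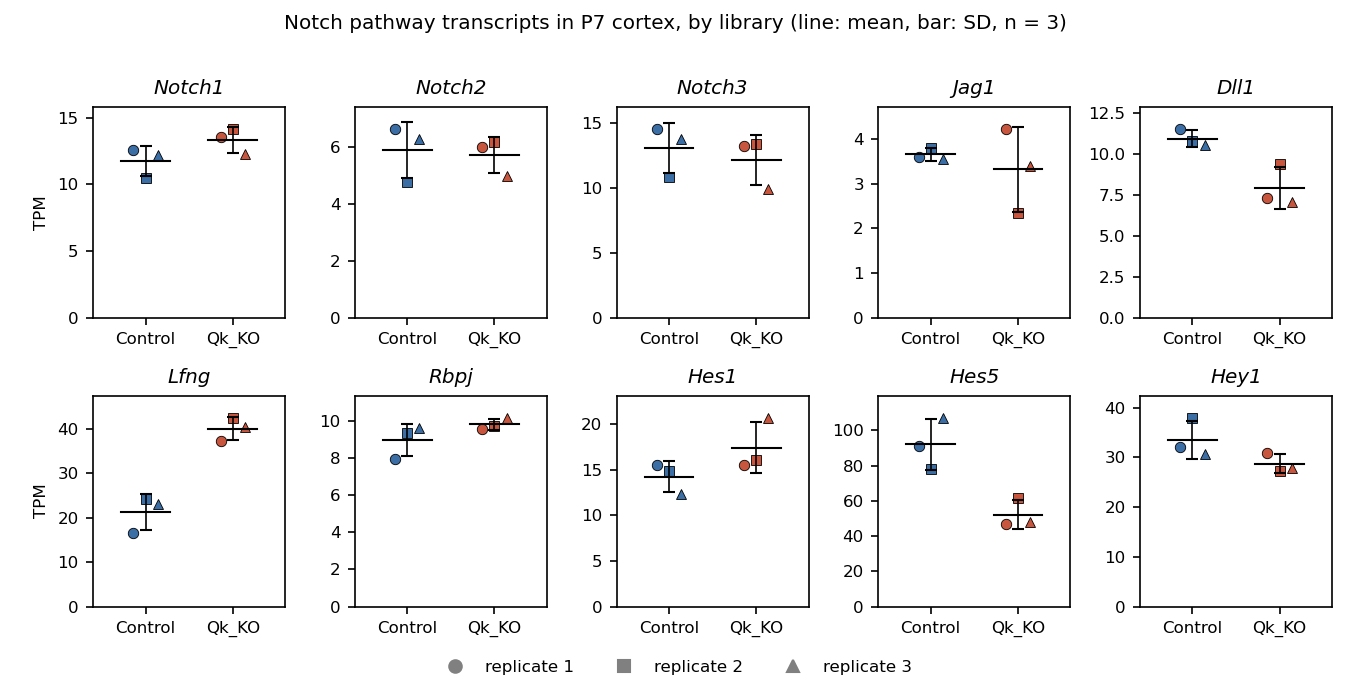
TPM of the 10 Notch pathway genes in each library, with control libraries in blue and knockout libraries in red, a line at the mean and a bar for the SD (n = 3); each panel has its own axis, starting at 0. Lfng sits between 16.6 and 24.2 TPM in control and between 37.2 and 42.4 TPM in knockout libraries, while Hes5 lies at 78.1 to 107 and 47.0 to 61.6 TPM.

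Hes5 was the most abundant of the 10 genes in control cortex and lay lower in every knockout library. This repressor of the Hes family is a direct target of Notch signalling in neural progenitors and is also found in astrocytes. Control replicates 1, 2 and 3 had 91.2, 78.1 and 107 TPM of Hes5, and knockout replicates 1, 2 and 3 had 47.0, 61.6 and 48.0 TPM. The lowest control value, in replicate 2, was above the highest knockout value, also in replicate 2. Means were 92.1 ± 14.4 and 52.2 ± 8.13 TPM (SD, n = 3), a knockout to control ratio of 0.567. The log2 change was −0.81 (95% interval −1.12 to −0.50), and limma's adjusted p of 0.0591 missed the threshold of 0.05. It passed when only genes averaging 5 TPM or more were tested (adjusted p = 0.0333) and in none of the 6 fits without a library (adjusted p 0.0531 to 0.195). Hes5 (Entrez 15208) spans chr4:154960923-154962371 on the plus strand in GRCm38.

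Hes1, the other Hes repressor among the 10 genes, did not pass. Its level was 15.5, 14.9 and 12.3 TPM in control and 15.5, 16.0 and 20.6 TPM in knockout libraries. The groups touched without crossing, since the highest control value (15.5 TPM, replicate 1) was just under the lowest knockout value (15.54 TPM, replicate 1). The log2 change was 0.27 (95% interval −0.05 to 0.58; limma, adjusted p = 0.646). Hey1, a related repressor that is also expressed in vessels, was at 32.1, 37.9 and 30.7 TPM in control and 30.8, 27.3 and 27.9 TPM in knockout libraries. Those groups overlapped, with control replicate 2 the highest, and the log2 change was −0.21 (95% interval −0.45 to 0.02; limma, adjusted p = 0.612).

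The balance between the Hes genes can be read within a library, where the scaling between libraries drops out. Hes5 made up 85.5%, 84.0% and 89.7% of the summed TPM of Hes1 and Hes5 in the control libraries. In the knockout libraries its share was 75.2%, 79.4% and 69.9%. The difference of the means was −11.6 percentage points, from 86.4% ± 2.96 to 74.8% ± 4.73 (SD, n = 3), with no overlap of the groups (exact permutation test, two-sided, p = 0.1). With 3 libraries against 3, that is the smallest p this test can give. Every knockout library had less Hes5 and more Hes1 than every control library. The separation of the shares follows from those values and is no further support for them.

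The receptors, which span the membrane and receive the signal, did not pass the test. Notch1 was at 12.6, 10.5 and 12.2 TPM in control and 13.6, 14.1 and 12.3 TPM in knockout libraries, with a log2 change of 0.17 (95% interval −0.09 to 0.43; limma, adjusted p = 0.744). Notch2 was at 6.62, 4.76 and 6.28 TPM in control and 6.01, 6.17 and 4.98 TPM in knockout libraries. Notch3, the receptor of pericytes and vascular smooth muscle, was at 14.5, 10.9 and 13.8 TPM and at 13.2, 13.4 and 9.93 TPM. The groups overlapped for all of these genes. Log2 changes were −0.03 for Notch2 (95% interval −0.40 to 0.34) and −0.10 for Notch3 (−0.44 to 0.25). With 3 brains per group, the values allow a change of either sign within those bounds. Notch4, an endothelial receptor outside the 10 genes, was lower than the others, at 2.53 ± 0.279 and 2.08 ± 0.27 TPM (SD, n = 3).

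Part of the spread of the receptors was shared between them. Control replicate 2 had the lowest value of all 4 receptors in its group, and knockout replicate 3 had the lowest in the other. The 4 receptors summed to 36.3, 28.3 and 35.0 TPM in the control libraries and to 34.8, 36.0 and 29.0 TPM in the knockout libraries. Within these sums Notch1 took 34.6%, 37.0% and 34.9% in control and 38.9%, 39.2% and 42.3% in knockout libraries. The groups did not overlap in this share, with means of 35.5% ± 1.3 and 40.1% ± 1.89 (SD, n = 3; exact permutation test, two-sided, p = 0.1, the smallest possible). The share is formed from the receptor values above, none of which passed, and is no further support for a change of Notch1.

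**Figure D2:**
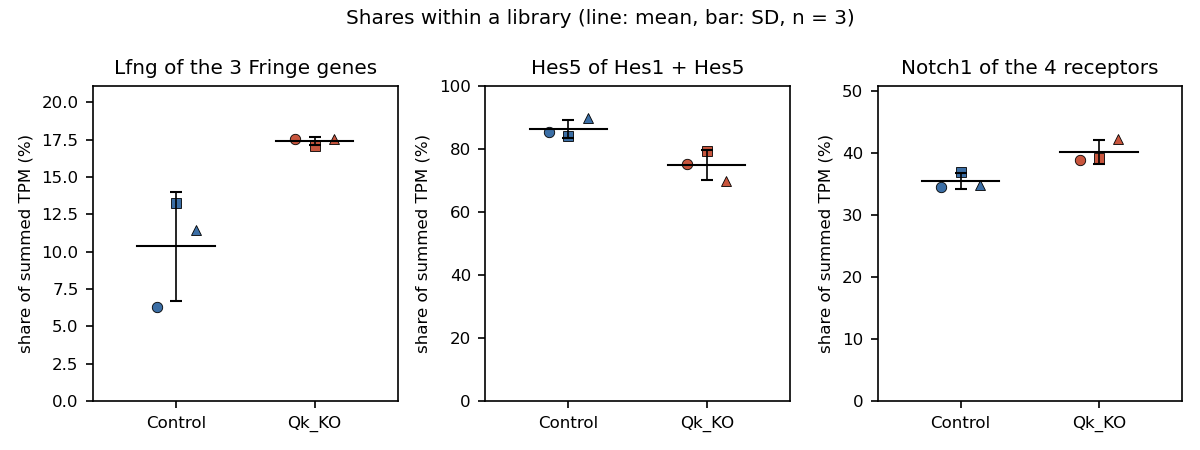
Share of Lfng in the summed TPM of the 3 Fringe genes, of Hes5 in that of Hes1 and Hes5, and of Notch1 in that of the 4 receptors, in percent, for each library (circles, squares and triangles are replicates 1, 2 and 3), with the mean and SD (n = 3). In each panel the knockout libraries lie on one side of the control libraries, from 10.4% to 17.4% for Lfng, 86.4% to 74.8% for Hes5 and 35.5% to 40.1% for Notch1 on average.

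Of the ligands, Dll1 was lower in every knockout library and Jag1 was not. Dll1 encodes a Delta ligand carried by differentiating progenitors and was at 11.5, 10.8 and 10.6 TPM in control and 7.34, 9.42 and 7.10 TPM in knockout libraries. The mean ratio was 0.726 and the log2 change −0.43 (95% interval −0.73 to −0.12; limma, unadjusted p = 0.0114, adjusted p = 0.37), which did not pass. Jag1, a Jagged ligand of vessels and progenitors, had the lowest level of the 10 genes, at 3.61, 3.81 and 3.55 TPM in control and 4.22, 2.34 and 3.40 TPM in knockout libraries. The knockout values of Jag1 lay on both sides of the controls and their SD was 0.943 TPM against 0.136 TPM. Dll1 and Notch3 are on chromosome 17, as is Qk, at distances of 5.05 Mb and 21.8 Mb (GRCm38), and the other 8 genes are on other chromosomes.

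Rbpj, the DNA-binding factor shared by all receptors, was at 7.97, 9.34 and 9.60 TPM in control and 9.57, 9.74 and 10.2 TPM in knockout libraries. Its log2 change of 0.12 (95% interval −0.15 to 0.39) did not pass (limma, adjusted p = 0.838), and the groups overlapped.

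Across the 10 genes, 1 rose and 0 fell at an adjusted p of 0.05, and 3 had an unadjusted p under 0.05 (Lfng, Hes5 and Dll1), against 8.72% of all tested genes. Knockout values lay wholly above the controls for 2 genes (Lfng and Hes1) and wholly below for 2 (Hes5 and Dll1), where the shares among all tested genes were 5.2% and 8.98%. Because the 10 genes were chosen with earlier results of these data known, these counts cannot show an excess over all genes. The median log2 change was −0.06, beside −0.03 over all genes. In control cortex the order of levels was Hes5, Hey1, Lfng, Hes1, Notch3, Notch1, Dll1, Rbpj, Notch2 and Jag1. Neighbouring genes in the stretch from Hes1 to Dll1, with means of 14.2 to 11.0 TPM, had overlapping control values, and the other neighbours did not overlap. By control mean, Hes5 stood at percentile 86.2 of the tested genes and Jag1 at percentile 17.6.

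**Figure D3:**
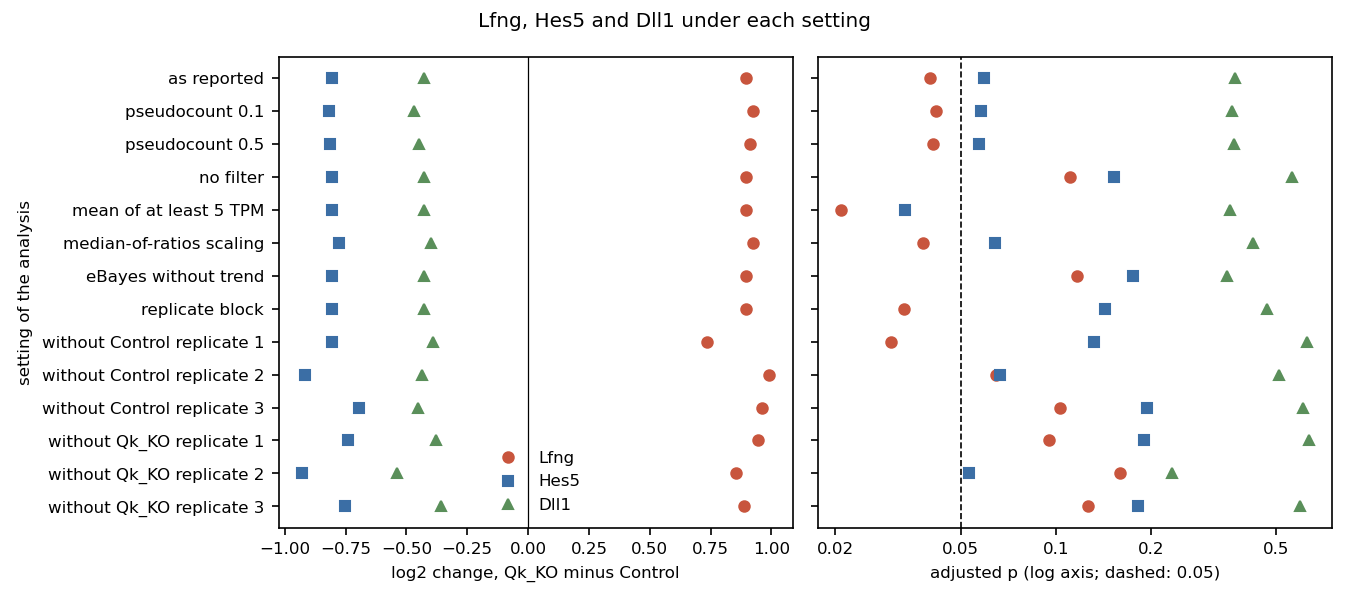
Log2 change (left) and adjusted p (right, log axis, dashed line at 0.05) of Lfng, Hes5 and Dll1 in the analysis as reported and under 13 other settings. The directions are the same in all settings, with Lfng at 0.73 to 0.99, Hes5 at −0.93 to −0.69 and Dll1 at −0.54 to −0.36, while Lfng passes 0.05 in 6 of the 13 and Hes5 in 1.

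Of the 3 Fringe genes, Lfng was the one that passed. Mfng, manic fringe, which is named here after its values were seen, was at 14.0, 14.4 and 16.4 TPM in control and 12.6, 8.47 and 11.3 TPM in knockout libraries, all knockout values below all controls. Its log2 change of −0.44 did not pass (limma, unadjusted p = 0.0166, adjusted p = 0.422). Rfng, radical fringe, was the most abundant, at 234, 143 and 162 TPM in control and 162, 197 and 179 TPM in knockout libraries. Its groups overlapped, with a log2 change of 0.02 (limma, adjusted p = 0.98). Lfng took 6.29%, 13.3% and 11.5% of the summed Fringe TPM in the control libraries and 17.6%, 17.1% and 17.6% in the knockout libraries. The means were 10.4% ± 3.64 and 17.4% ± 0.268 (SD, n = 3; exact permutation test, two-sided, p = 0.1, the smallest possible). Control replicate 1, with the highest Rfng and the lowest Lfng value, set much of the control spread, and without it the difference was 5.03 points in place of 7.07. This share is formed from the Fringe values above and is no further support for the change of Lfng.

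None of the other genes of the pathway passed. The list held 56 further genes in 7 roles, of which 54 were tested and 0 rose or fell with limma. Hes3 was listed at 0 TPM in all libraries and Hes7 stayed under the filter. At an unadjusted p under 0.05 there were 1 higher (Maml2) and 3 lower genes (Mfng, Adam17 and Neurl1b), or 7.41% of the 54 beside 8.72% of all tested genes. Knockout values lay wholly above control for 4 genes (7.41%) and wholly below for 6 (11.1%), beside 5.2% and 8.98% of all tested genes. These shares are near those over all genes. The median log2 change was −0.05. The most abundant genes listed under each role did not pass, and their levels follow for control and knockout (all SD, n = 3). Listed as ligands were Jag2 (30.3 ± 2.18 and 28.8 ± 2.29 TPM) and Dlk2 (57.9 ± 7.01 and 52.2 ± 6.21 TPM). The gamma-secretase subunits were Psenen (163.5 ± 25.6 and 167 ± 9.28 TPM) and Ncstn (75.7 ± 8.97 and 77.6 ± 1.57 TPM). Listed as targets were Fabp7, which encodes a fatty acid binding protein of radial glia (899.8 ± 101 and 1046 ± 110 TPM), and Hes6 (65.1 ± 5.13 and 61.8 ± 6.58 TPM). Whether Dlk2 and Hes6 act in these roles in the cortex was not tested. Dtx1 and Dtx3 of the Deltex family, the corepressor Ctbp1, the acetyltransferase Kat2a and the O-glucosyltransferase Poglut1 had log2 changes between −0.09 and 0.07.

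**Figure D4:**
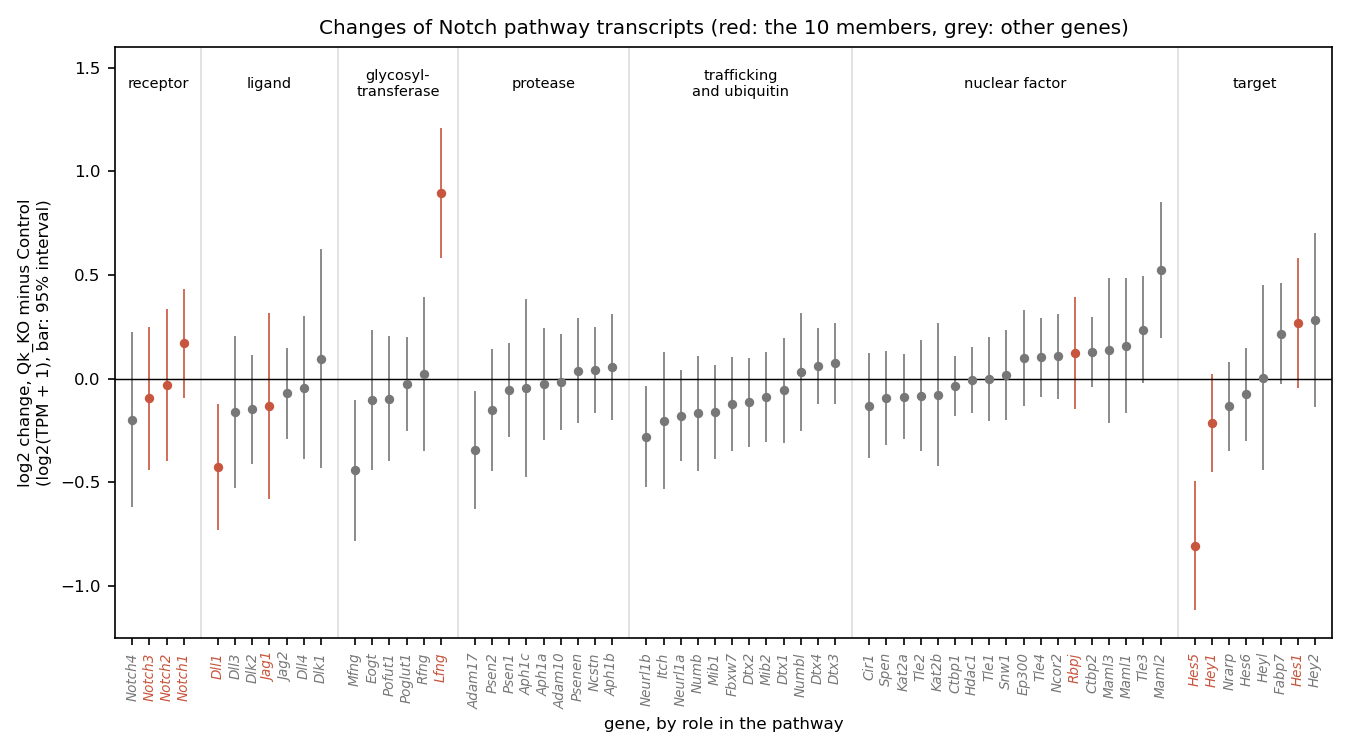
Log2 change, knockout minus control on the log2(TPM + 1) scale, of the 64 tested genes of the pathway grouped by role, with 95% intervals from limma; the 10 genes described first are in red and the other 54 in grey. Lfng (0.89) and Hes5 (−0.81) lie farthest from 0, and the other named genes lie between −0.44 (Mfng) and 0.52 (Maml2).

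The 10 further genes whose groups did not overlap are named here after their values were seen, and none of them passed. The 4 with higher knockout values were the Mastermind coactivators Maml1, Maml2 and Maml3, which bridge the cut receptor and the transcription machinery, and the corepressor Ctbp2. Maml2 was at 3.90, 3.92 and 3.29 TPM in control and 5.50, 5.93 and 5.84 TPM in knockout libraries (log2 change 0.52; limma, adjusted p = 0.28), while Maml1, Maml3 and Ctbp2 had log2 changes of 0.16, 0.14 and 0.13 (limma, adjusted p 0.69 to 0.866). The 6 with lower knockout values were Mfng, the protease Adam17, which can shed receptors and ligands, the ubiquitin ligases of Notch ligands Neurl1b and Mib1, Numb, which restrains the receptors, and Dtx2 of the Deltex family. Adam17 was at 10.4, 9.15 and 8.84 TPM in control and 7.24, 7.78 and 6.68 TPM in knockout libraries (limma, adjusted p = 0.467). Neurl1b was at 22.5, 26.7 and 28.1 TPM in control and 21.0, 22.0 and 19.8 TPM in knockout libraries (limma, adjusted p = 0.491). Mib1, Numb and Dtx2 had log2 changes of −0.16, −0.17 and −0.11 (limma, adjusted p 0.714 to 0.798).

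By pattern over the 6 libraries, measured as the root mean square difference of z-scored log2(TPM + 1), the genes most like Lfng were Csnk1a1 (0.0678), Lgals3 (0.0883) and Zbtb2 (0.0889). Csnk1a1, a casein kinase, went from 158 ± 6.64 to 179 ± 3.29 TPM and Lgals3, which encodes galectin-3, from 3.53 ± 1.13 to 9.57 ± 1.48 TPM (SD, n = 3). None of these 3 passed the threshold (limma, adjusted p 0.0591 to 0.488).

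Marker lists of the cell types of the cortex were read beside these genes. The lists were chosen with earlier results of these data known. Over all 14994 tested genes, 0.1% rose and 0.287% fell, and the median log2 change was −0.03. Of 14 astrocyte markers, 6 fell (Slc1a3, Gja1, S100b, Fgfr3, Mlc1 and Acsbg1) and 0 rose, and their summed level was 1229 to 1307 TPM in control and 840.5 to 917.5 TPM in knockout libraries, values given here beside those of Hes5. Of the 14, 12 had a negative log2 change, and 11 had all knockout values below all controls, beside 8.98% of all tested genes. The other 8 astrocyte markers did not pass, among them Gjb6 (log2 change −0.62, limma, adjusted p = 0.0733) and Slc1a2 (−0.55, limma, adjusted p = 0.185). The 2 with a positive log2 change were Aldh1l1 and Ppp1r3c. Aldh1l1 lay higher in every knockout library (log2 change 0.47, limma, unadjusted p = 0.00137, adjusted p = 0.139). Ppp1r3c had a log2 change of 0.37 (limma, unadjusted p = 0.032, adjusted p = 0.509). Among 15 radial glia and stem cell markers, Vim rose and Slc1a3 and Hopx fell, with sums of 1485 to 1721 TPM and 1539 to 1728 TPM. Those sums held mostly Fabp7, with means of 899.8 and 1046 TPM, and Slc1a3 moved the other way, from 264.9 to 112.4 TPM. Of the 15, 10 had a positive and 5 a negative log2 change. Knockout values lay wholly above control for 4 and wholly below for 3, beside 5.2% and 8.98% of all tested genes. Of 8 markers of ependyma and choroid plexus, Foxj1 rose and 6 had a negative log2 change that did not pass, among them the ependymal genes Tmem212 (−0.65) and Ccdc153 (−0.08). That list summed to 781.8 to 1569 TPM in control and 721.2 to 1067 TPM in knockout libraries, of which Ttr was 89.6% to 95.3%, and the other 7 summed to 57.5 to 85.1 TPM and 61.0 to 75.1 TPM. No member of 11 endothelial and 12 pericyte and smooth muscle markers passed, and all of both lists had a negative log2 change. The endothelial sums overlapped, at 478.4 to 614.7 TPM in control and 448.7 to 516.3 TPM in knockout libraries. The pericyte and smooth muscle sums were 293.7 to 316.9 TPM and 236.6 to 278.7 TPM. Vtn was the largest part of them, with means of 172 and 138.1 TPM. The sums of both lists are given beside the values of Notch3 and Jag1. For Dll1, 8 of the 10 markers of neurogenic progenitors and newborn neurons were tested (Neurog1 and Neurog2 were under the filter) with 0 calls, and the 10 had sums of 206.5 to 224.8 TPM and 211.5 to 220.3 TPM, with Neurog1 listed at 0 in all libraries. The 10 markers listed for oligodendrocyte precursors had 1 rise (Olig2) and 2 falls (Gpr17 and Bcas1), and 8 had a negative log2 change. Pdgfra lay lower in every knockout library but did not pass (log2 change −0.30, limma, adjusted p = 0.241). Cspg4 did not pass either, and its groups overlapped (log2 change −0.14, limma, adjusted p = 0.785). Of 8 myelin markers, 6 of them tested (Mobp and Opalin were under the filter), Mbp and Cnp fell. Markers of microglia, projection neurons and interneurons had 0 calls. The microglia sums overlapped, at 255.1 to 272.9 TPM in control and 266.2 to 283.4 TPM in knockout libraries. Both neuronal sums were higher in every knockout library. Projection neuron markers summed to 822 to 861.4 TPM and 885.4 to 892.8 TPM, with 6 positive and 3 negative log2 changes. Interneuron markers summed to 1634 to 1930 TPM and 2084 to 2141 TPM, with 6 positive and 2 negative, and Sst had means of 1054 and 1314 TPM. Of the 14 markers that passed, 4 (Slc1a3, S100b, Mlc1 and Mbp) also did in each of the 6 fits on 5 libraries, while Foxj1, Gja1 and Fgfr3 did in 0. No marker of the other lists was at 0 in all libraries, and the part of these cells in the results above was not tested. In whole cortex, fewer cells of a type and less RNA per cell cannot be told apart.

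The core letters of the quaking response element, ACTAAC or ACTAAT, were searched on the sense strand in the longest annotated 3' UTR of each gene (GENCODE M21, GRCm38), since quaking binds RNA at such sites. That search and its range of similar lengths were also chosen after the values were seen. Only Notch1 among the 10 genes held a match, where 35.7% of 13477 tested genes with a 3' UTR did. The match is shown with its surroundings, the core in capitals.
Notch1, 3' UTR position 1580 of 1628: ctttttttgttaACTAATttgcaataaaaa
Of 2211 tested genes with a 3' UTR between 0.8 and 1.2 times that length, 38.6% held at least 1 match. The 3' UTRs of Lfng (1072 bases), Hes5 (696 bases) and Dll1 (676 bases) held none, where 26.2%, 16.1% and 15.9% of tested genes of similar length did. Over all members without a match, this share ran from 11.6% for Hes1 (368 bases) to 64.5% for Rbpj (3742 bases). For Notch2 (2917 bases) it was 55.5%.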

How the data were processed

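Per the labels, each library came from the cerebral cortex of 1 brain (3 control, 3 Qk-/-), with oligo-dT selection, the Ion Total RNA-Seq Kit and the Ion Proton. The authors deposited 1 TPM value per gene and library. STAR 2.4.1d, RSEM 1.3.0 and builds mm10 and GRCm38.p4 are named in the submitters' processing notes; the sources used here do not give the annotation or the strand handling. TPM keeps no depth, so no counting error was computed.

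TPM were used without rescaling. The 14994 genes averaging 1 TPM or more were fitted as log2(TPM + 1) with limma 3.58.1 (eBayes with trend, R 4.3.3), group as the only term, two-sided, with Benjamini-Hochberg adjustment over all tested genes. Shares were compared by an exact permutation test (scipy 1.17.1). The fit was also run on simulated independent normal values with set changes, as a check of the code. That run did not test the choice of filter or of variance trend, on which the Lfng call depends. Libraries shared 50 to 75 identical values among tested genes in any pair, so none was a duplicate.

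The 10 genes, the pathway and marker lists were chosen with earlier results of these data known. Named genes were the 10 members, Qk, the 2 most abundant others of each role and any past the threshold, with further ones stated as chosen after their values were seen. Alternatives changed the pseudocount (0.1 and 0.5), filter, scaling, variance trend, replicate block and libraries.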

Additional observations from a re-analysis of the deposited data

How the results depend on the processing

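With 3 brains per group the intervals of most of these genes are wide. The count of genes past the threshold over all genes was 58 as reported, 37 without a filter, 28 without the variance trend and 27 to 59 in fits leaving out a library. Of the 10 Notch pathway genes, 1 passed as reported, 0 without a filter or without the trend, 2 with a mean of at least 5 TPM required, where Jag1 was not tested, and 0 to 1 without a library. The other genes of the pathway had 0 calls under all 13 alternatives. With the replicate number as a block, 38 of all genes passed and 1 of the 10, Lfng (adjusted p = 0.033). The numbers are not known to pair the brains: deviations of same-numbered libraries correlated at 0.0134 to 0.035, although each library correlated best with its own number. Leaving out a library reversed Notch2 (log2 change −0.153 to 0.0524), Notch3 (−0.212 to 0.0337), Jag1 (−0.28 to 0.0419), Rfng (−0.12 to 0.23), Poglut1 (−0.0887 to 0.0518), Psenen (−0.0795 to 0.147), Ncstn (−0.0176 to 0.135), Dtx3 (−0.00955 to 0.12) and Dtx1 (−0.166 to 0.0158); median-of-ratios scaling also reversed Poglut1 (0.0017). The cause was not tested. The 3 shares kept their direction in all settings run.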
